A study of Mus musculus with 9 samples.

Results

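The mRNAs described here encode the exon junction complex and the proteins that join it at its rim. They were chosen by gene symbol, as all transcripts of the deposited table whose gene name is Eif4a3, Magoh, Magohb, Rbm8a, Casc3, Rnps1, Pnn, Acin1 or Sap18. These are 9 genes with 72 transcripts, of 54325 gene symbols and 140658 transcripts in the table. The rule itself uses gene names only. All 9 genes had counts, and 64 of the 72 transcripts did.

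The exon junction complex is left on mRNA just upstream of exon-exon junctions when introns are spliced out, and it travels with the mRNA to the cytoplasm, where the translating ribosome removes it. A complex that remains downstream of a stop codon can recruit the helicase UPF1 through other UPF proteins, and UPF1 is then phosphorylated as the mRNA enters nonsense-mediated mRNA decay (NMD). The core is formed by the RNA clamp eIF4A3, by MAGOH or its paralog MAGOHB together with RBM8A (also called Y14), and by CASC3 (also called MLN51). RNPS1, ACIN1, PNN and SAP18 are peripheral and form the ASAP and PSAP complexes, which act in splicing.

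The libraries came from N2A cells, a mouse neuroblastoma line, and asked which RNAs are bound by phosphorylated UPF1 (p-UPF1). Cells of every group had been treated with 200 nM okadaic acid, a phosphatase inhibitor, for 2 h, so no library shows untreated cells. RNA was cleaved with RNase I, fragments of 25 to 50 nt were kept, and 3 libraries each were made from input RNA (no immunoprecipitation), from a control immunoprecipitation with rabbit IgG (rIgG IP) and from an immunoprecipitation with antibody to p-UPF1 (p-UPF1 IP). The sample labels do not say that the replicate libraries came from separate cultures, so p-values measure only the spread between these libraries, which may be technical.

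Total counts were 26023968, 25184464 and 29857955 in input, 474491, 205177 and 79010 in the rIgG IP, and 5312526, 6032142 and 6246110 in the p-UPF1 IP. A level of 3 counts corresponds to 0.101 to 0.119 CPM (counts scaled to the same library total) in input and to 0.480 to 0.565 CPM in the p-UPF1 IP. In the rIgG IP it takes 6.32, 14.6 and 38.0 CPM, which covers counting error only. The line was checked against marker genes. Of 11 neuroblastoma or neuron markers, 9 had at least 10 counts over the input libraries, Stmn2 the most, and the list summed to 5543, 5236 and 5654 counts. Of the neurofilament genes in the list, Nefl had no count and Nefm 1 count in input. Among markers of blood, glia, endothelium, fibroblasts and liver, Pecam1 had the most input counts (38, 35 and 39), and Aqp4, Cldn5 and Alb had none. In such bulk libraries fewer cells and less RNA per cell cannot be told apart.

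The members were a small part of each library. They took 2167, 2130 and 2536 counts in input, which is 0.00833%, 0.00846% and 0.00849% of the total. In the p-UPF1 IP they took 721, 854 and 841 counts, or 0.0136%, 0.0142% and 0.0135%. Casc3 alone held 262, 330 and 302 of these p-UPF1 IP counts, and 340, 310 and 373 of the input counts. The rIgG IP held 30, 17 and 6 counts of all members together, so single members rest there on very few reads.

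Counts of each gene's transcripts were summed, and 16919 genes were tested between p-UPF1 IP and input libraries by edgeR's quasi-likelihood test with Benjamini-Hochberg adjustment. A gene is called higher or lower at an adjusted p under 0.05, and enriched or depleted where the log2 fold change is also beyond 1. Of the 9 members, 2 were higher (Casc3 and Acin1), against 26.3% of all genes tested, and 1 of these (Casc3) was enriched, against 17.2%. The 3 lower members were Eif4a3, Magoh and Rbm8a, against 35.7% of all genes, and 1 of them (Magoh) was depleted, against 26.5%. The other 4 were called in neither direction. The same 5 called genes are those whose input and p-UPF1 IP values did not overlap, which held for 70.1% of all genes tested. The median log2 fold change was -0.17 over the members and -0.42 over all genes tested. This order turned with protein-coding transcripts only (members -0.57, all genes -0.21) and with the stricter count filter filterByExpr (-0.14 and -0.11). The zero of these values depends on the scaling: with library totals in place of TMM factors the median of all genes was -0.01 and that of the members 0.24, and 33.7% of all genes were higher and 25.8% lower. With library totals 3 members were higher and 2 lower.

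**Figure D1:**
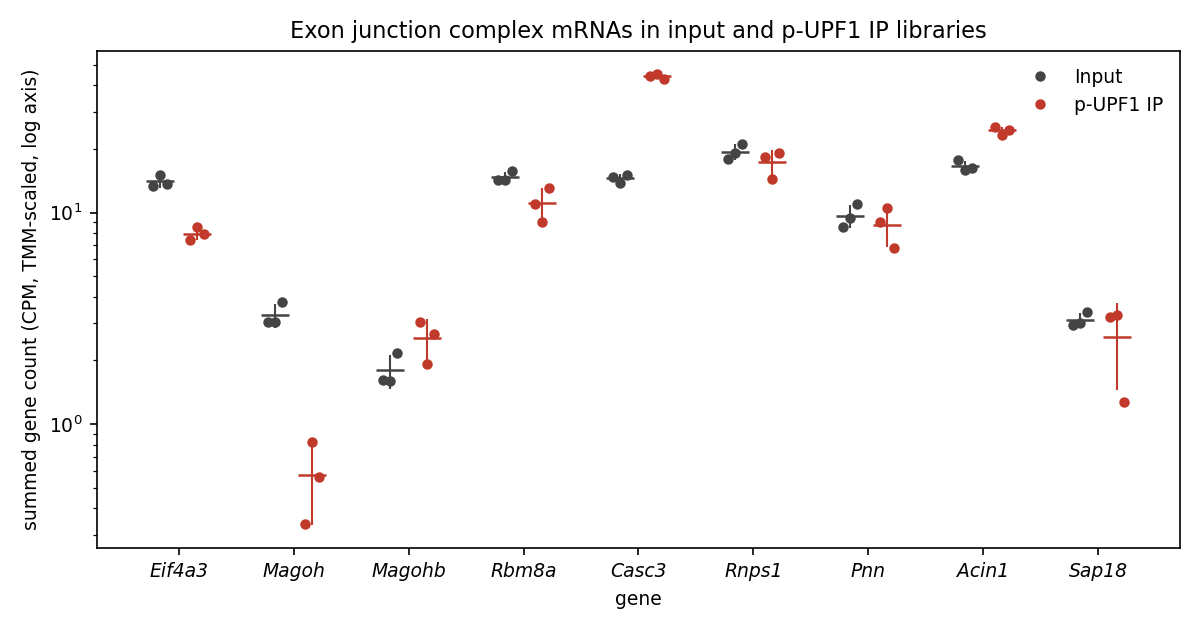
Summed gene counts of the 9 exon junction complex genes in TMM-scaled CPM on a log axis, with a point for each of the 3 input and 3 p-UPF1 IP libraries, the mean as a horizontal line and the SD as a vertical line. Casc3 and Acin1 lie higher in every p-UPF1 IP library than in any input library, and Eif4a3, Magoh and Rbm8a lie lower.

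Casc3 (chr11:98804905-98833814, plus strand, GRCm38), which encodes the core subunit that binds eIF4A3 and the RNA, stood apart from the other core genes. Its counts were 340, 310 and 373 in the input libraries, then 262, 330 and 302 after the p-UPF1 IP, although the latter libraries are several times smaller. Scaled, the level was 14.5 ± 0.614 CPM in input and 44.1 ± 1.40 CPM in the p-UPF1 IP (SD, n = 3 each). All p-UPF1 IP libraries were high and close together, and the groups were far from overlapping. For Casc3 the log2 fold change was 1.60 (SE 0.07, adjusted p = 3.65e-08 by edgeR's quasi-likelihood test, higher in 3 of 3 libraries), which is 2.02 above the median gene. Over 15 other ways of processing it ranged from 1.52 to 2.01, with an adjusted p of at most 2.91e-06.

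Eif4a3 (chr11:119288363-119300089, minus strand), which encodes the RNA helicase that clamps the complex onto RNA, went the other way. Input libraries held 307, 338 and 339 counts, and p-UPF1 IP libraries 44, 62 and 56. The level was 14.0 ± 0.935 CPM in input and 7.95 ± 0.528 CPM in the p-UPF1 IP (SD, n = 3 each). Every p-UPF1 IP library was below every input library. Eif4a3 thus had a log2 fold change of -0.81 (SE 0.10, adjusted p = 5.50e-05 by edgeR's quasi-likelihood test), or -0.40 relative to the median gene, and with library totals alone the value was -0.40 (adjusted p = 0.0153). In annotated sequence, 27.5% of the 35-nt windows of Eif4a3 also occur in other genes, mainly Gm5580, Gm5576 and Gm8994, to which at most 4 counts were assigned in any library. The part of shared sequence in the Eif4a3 value was not tested.

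Magoh (chr4:107879755-107887424, plus strand) and Magohb (chr6:131284388-131293244, minus strand) encode nearly identical proteins that pair with RBM8A, and they differed in these libraries. Magoh counts were 70, 68 and 94 in the input libraries but only 2, 6 and 4 after the p-UPF1 IP. That is 3.29 ± 0.426 CPM against 0.575 ± 0.242 CPM (SD, n = 3 each). The groups did not overlap, and the p-UPF1 IP values lie close to the level of 3 counts. The log2 fold change of Magoh was -2.46 (SE 0.31, adjusted p = 5.11e-05 by edgeR's quasi-likelihood test), and with protein-coding transcripts only it was -3.39 (adjusted p = 0.00563). Magohb counts were 37, 36 and 54 in the input libraries, then 18, 14 and 19 after the p-UPF1 IP, or 1.80 ± 0.325 and 2.55 ± 0.575 CPM. Its groups overlapped. The log2 fold change of Magohb was 0.49 (SE 0.26, adjusted p = 0.126 by the same test), which does not pass the threshold. It passed with library totals alone (0.90, adjusted p = 0.00954) and was -0.84 with protein-coding transcripts only (adjusted p = 0.541). The difference between the paralogs' fold changes was not tested. Magoh and Magohb share no 35-nt window, whereas 28.0% of the Magohb windows occur in other genes, mainly the pseudogene Gm44958. This pseudogene is annotated within the Magohb locus on the same strand (chr6:131291603-131292338), and it had 8 counts in input replicate 2 and none elsewhere. The main input transcript of Magohb, ENSMUST00000032307.11, has no window in other genes.

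Rbm8a (chr3:96629933-96633791, plus strand), the partner of both MAGOH proteins, gave 328, 319 and 391 counts in the input libraries, then 65, 66 and 93 after the p-UPF1 IP. Its level was 14.7 ± 0.845 CPM in input and 11.1 ± 2.02 CPM in the p-UPF1 IP (SD, n = 3 each). The p-UPF1 IP libraries were all below the input libraries, and replicate 3 came nearest to them. Its log2 fold change was -0.42 (SE 0.12, adjusted p = 0.0139 by edgeR's quasi-likelihood test), the same as the median of all genes. The call was lost with library totals alone (-0.01, adjusted p = 0.956), without p-UPF1 IP replicate 1 (-0.37, adjusted p = 0.0549) and without p-UPF1 IP replicate 2 (-0.25, adjusted p = 0.0931), and with protein-coding transcripts only the value was 0.25 (adjusted p = 0.136).

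Among the peripheral genes, Acin1 (chr14:54642161-54686931, minus strand), which encodes the scaffold of the ASAP complex, was the only one called in this comparison. Acin1 counts were 407, 356 and 402 in the input libraries, then 150, 170 and 174 after the p-UPF1 IP, at 16.6 ± 0.973 and 24.4 ± 1.05 CPM (SD, n = 3 each). Each p-UPF1 IP library was above each input library. Acin1 had a log2 fold change of 0.56 (SE 0.08, adjusted p = 0.000181 by edgeR's quasi-likelihood test). With protein-coding transcripts only, the call was lost and the value was -0.13 (adjusted p = 0.332).

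Rnps1 (chr17:24414565-24425901, plus strand), whose product activates splicing and is shared by ASAP and PSAP, gave 413, 426 and 526 counts in the input libraries, then 108, 105 and 136 after the p-UPF1 IP. These correspond to 19.4 ± 1.62 and 17.3 ± 2.53 CPM (SD, n = 3 each), with overlapping groups and a log2 fold change of -0.17 (SE 0.12, adjusted p = 0.228). With protein-coding transcripts only the value was -1.12 (adjusted p = 0.187). The pseudogene Gm9825 holds 12.4% of its windows and had 23, 21 and 23 counts in the input libraries, then 20, 25 and 0 after the p-UPF1 IP. With these counts added, the Rnps1 value was -0.06 (adjusted p = 0.614). Pnn (chr12:59066884-59073998, plus strand), which encodes the scaffold of PSAP, gave 197, 210 and 273 counts in the input libraries, then 53, 77 and 48 after the p-UPF1 IP. Its levels of 9.64 ± 1.23 and 8.77 ± 1.91 CPM overlapped, and the log2 fold change was -0.14 (SE 0.16, adjusted p = 0.474). For both genes the sign turned with library totals alone, to 0.24 and 0.28.

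Sap18 (chr14:57798180-57806638, plus strand), which encodes a subunit shared by ASAP and PSAP, gave 68, 67 and 84 counts in the input libraries, then 19, 24 and 9 after the p-UPF1 IP. Its levels were 3.11 ± 0.233 and 2.59 ± 1.15 CPM (SD, n = 3 each), and the groups overlapped. Replicates 1 and 2 of the p-UPF1 IP lay within the input range, and replicate 3 was low. Sap18 had a log2 fold change of -0.27 (SE 0.29, adjusted p = 0.422), and 0.10 without that library. The gene shares 13.6% of its windows with Sap18b, a copy on chromosome 8, whose counts were 136, 124 and 166 in the input libraries, then 0, 0 and 15 after the p-UPF1 IP. The library with the low Sap18 count is the one with Sap18b counts, and their sum was 204, 191 and 250 in the input libraries, then 19, 24 and 24 after the p-UPF1 IP. For this sum the log2 fold change was -1.47 (adjusted p = 5.81e-06). The part of the shared sequence in the split between the 2 genes was not tested.

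**Figure D2:**
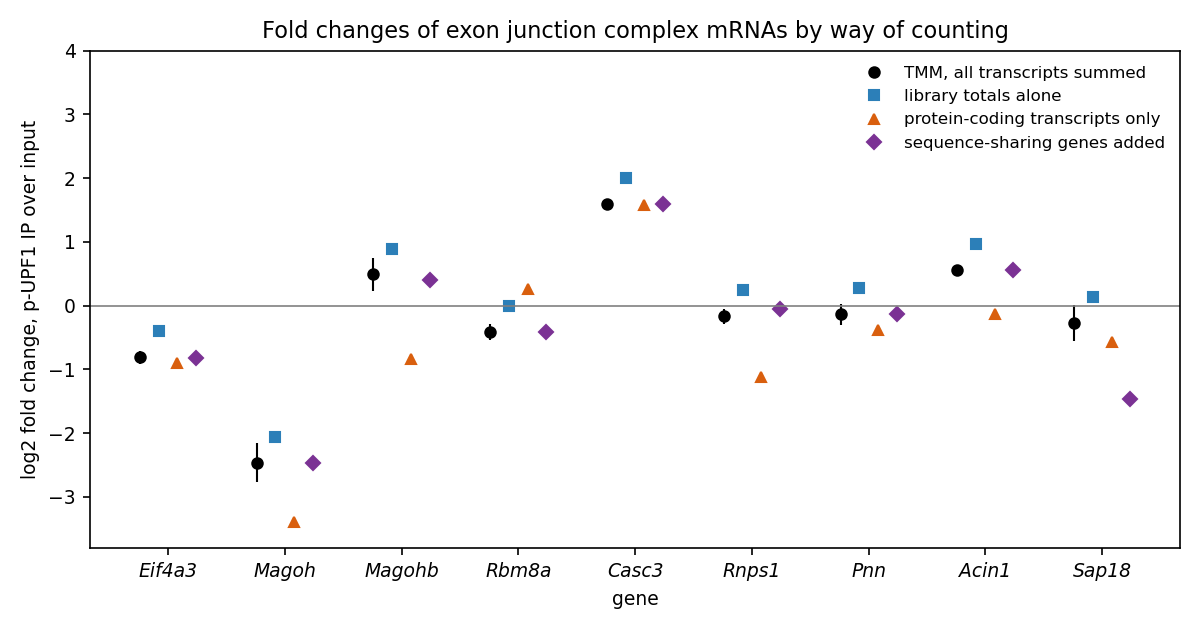
Log2 fold change of each member in the p-UPF1 IP over input from edgeR on summed counts, with its SE as a line (circles), and with library totals alone (squares), protein-coding transcripts only (triangles) or genes that share at least 5% of a member's windows added to the sum (diamonds). Casc3 stays between 1.58 and 2.01 and Magoh between -3.39 and -2.05, while Magohb, Rbm8a, Rnps1, Pnn, Acin1 and Sap18 have points on both sides of 0.

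The rIgG IP measures the RNA recovered without antibody to p-UPF1. Casc3 had 7, 2 and 1 counts there, Acin1 6, 4 and 1, Rnps1 6, 5 and 0, and Rbm8a 5, 1 and 0. Magoh had no count in any rIgG IP library, and the others had at most 3 in each. Against the rIgG IP (12033 genes tested), 1 of 9 members was higher, Casc3, against 18.5% of all genes. The share of all genes depends on the settings: it was 11.0% without rIgG IP replicate 1, 10.1% with DESeq2, 12.5% with RLE factors and 9.60% in a joint fit of all 9 libraries. The share of lower genes was 2.61% without rIgG IP replicate 1, where the median of all genes was 1.60. The log2 fold change of Casc3 was 2.03 (SE 0.37, adjusted p = 0.000197 by edgeR's quasi-likelihood test), and it ranged from 1.66 to 2.61 over the other ways of processing, with an adjusted p of at most 0.00531. Acin1 had the next lowest p (log2 fold change 1.03, SE 0.39, adjusted p = 0.0546) and did not pass. No member was lower by edgeR, against 5.56% of all genes. The count was also 0 at an unadjusted p under 0.05 (8.19% of all genes) and 0 by DESeq2 (8.04%). The members' median was 0.77 and that of all genes 0.91, an order that turned with DESeq2 (0.26 and 0.25) and without rIgG IP replicate 3 (0.81 and 0.75). This comparison and that with input share the p-UPF1 IP libraries, so they are not independent: Casc3 was at 1.60 over input and 2.03 over rIgG, Acin1 at 0.56 and 1.03, and Eif4a3 at -0.81 and 0.56 (adjusted p = 0.537 for the latter).

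In the rIgG IP over input, edgeR called 0 members higher (0.584% of 16280 genes) and 0 lower (0.313%). At an unadjusted p under 0.05 edgeR gave 0 higher (2.58% of all genes) and 1 lower (9.77%). DESeq2 called 0 higher (1.81%) and 0 lower (0.405%). Each rested on the few rIgG IP counts given above.

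The summed counts hide how the counts were divided among transcripts. Fragments of this length are often shared by isoforms, and the estimated counts of single transcripts varied far more between replicates (biological coefficient of variation 96.7%) than the sums did (12.4%). Of the 72 transcripts, 44 could be tested. Between p-UPF1 IP and input libraries, 5 were enriched, against 8.55% of 42616 transcripts tested, and 7 were depleted, against 16.2%. The enriched ones are 1 each of Eif4a3 and Casc3 and 3 of Acin1. The depleted ones are 2 of Rbm8a and 1 each of Magohb, Rnps1, Pnn, Acin1 and Sap18. With the replicate number as a block, edgeR called 0 enriched, against 2.52% of all transcripts, and 0 depleted, against 3.44%. At an unadjusted p under 0.05 the block gave 5 enriched (8.95% of all) and 9 depleted (13.2%). DESeq2 without the block gave 8 enriched (12.4% of all) and 10 depleted (18.8%).

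For Casc3, ENSMUST00000017384.13 went from 77, 156 and 371 counts in the input libraries to 238, 307 and 280 after the p-UPF1 IP (log2 fold change 1.97, SE 0.54, adjusted p = 0.0454). The other coding transcript, ENSMUST00000169695.1, had 259, 135 and 0 in input and none in the p-UPF1 IP. Input replicates thus split the same gene total in different ways, and ENSMUST00000169695.1 has no 35-nt window of its own within the gene.

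For Eif4a3, ENSMUST00000026667.14 took at least 99.0% of the count in each input library but 4.55%, 29.0% and 60.7% in the p-UPF1 IP. This transcript itself was not called (log2 fold change -2.74, adjusted p = 0.0523), and in p-UPF1 IP replicate 3 it was still the most counted. The transcript ENSMUST00000106253.1 went from 0, 0 and 0 counts to 31, 39 and 22, at least 28.9-fold higher against 3 counts per library (adjusted p = 0.00381, and 0.116 with the replicate block). ENSMUST00000106253.1 has 8 exons and is annotated with no sequence after its coding part. It skips exon 4 of the 12 exons of ENSMUST00000026667.14 (chr11:119295473-119295535, minus strand), which is 63 nt long and so a whole number of codons. Only 3.52% of its 35-nt windows occur in no other annotated transcript of any gene, and 41.7% occur in other genes. The bound for this transcript therefore depends on how shared reads were assigned. Exon 4 is not the only difference. As annotated, ENSMUST00000106253.1 measures 916 nt against 1509 nt, and it ends at chr11:119292841 in place of chr11:119288363. Since no sequence is annotated after its coding part, this may not be the end of the RNA. The sequences at exon 4 are shown with 30 bases of exon 3 and of exon 5, read from the annotated transcripts 5′ to 3′ (chr11:119294674-119296096, minus strand, introns removed). Capitals mark exon 4 in the transcript that has it and the bases of exon 5 in the transcript that joins exon 3 to exon 5.
Eif4a3 with exon 4: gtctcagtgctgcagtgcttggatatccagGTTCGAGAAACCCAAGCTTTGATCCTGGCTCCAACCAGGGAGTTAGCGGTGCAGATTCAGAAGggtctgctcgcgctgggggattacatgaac
Eif4a3 without exon 4: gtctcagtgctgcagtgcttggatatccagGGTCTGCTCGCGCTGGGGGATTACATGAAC

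Acin1, Pnn and Rbm8a differed between the groups in the share of counts on transcripts annotated with a retained intron. For Acin1 this share was 7.37%, 12.4% and 7.21% in input and 30.7%, 40.0% and 23.0% after the p-UPF1 IP. Acin1 ENSMUST00000152773.1 (0, 0 and 2 counts, then 22, 27 and 26) and ENSMUST00000151487.7 (0, 0 and 0, then 20, 19 and 14, at least 16.8-fold higher) are of this type. So is ENSMUST00000125767.7 (0, 0 and 0 counts, then 4, 22 and 0), which was not called. Other Acin1 transcripts of the type had 0 counts in every p-UPF1 IP library, namely ENSMUST00000124271.7 (15, 25 and 6 in input), ENSMUST00000129700.2 (10, 18 and 6), ENSMUST00000133706.1 (5, 1 and 5) and ENSMUST00000141993.1 (0, 0 and 10). The long coding transcript ENSMUST00000022793.14 was also enriched (96, 61 and 114 counts, then 67, 82 and 89), whereas the shorter ENSMUST00000126166.7 went from 252, 115 and 172 counts to 0 in every p-UPF1 IP library, at least 21.1-fold lower. In both of these coding transcripts and in ENSMUST00000151487.7, every 35-nt window also occurs in another annotated transcript. The bounds therefore depend on how shared reads were assigned. The Pnn share was 10.2%, 8.57% and 10.3% in input and 28.3%, 33.8% and 14.6% after the p-UPF1 IP. For Rbm8a the retained-intron share was 31.4%, 35.1% and 39.1% in input and 1.54%, 0% and 2.15% after the p-UPF1 IP. Rbm8a ENSMUST00000199022.1, which keeps an intron, went from 103, 112 and 153 counts in the input libraries to 1, 0 and 1 after the p-UPF1 IP (adjusted p = 0.00371). Of 4 members that could be compared, the share was higher without overlap in 2 (Acin1 and Pnn), against 17.3% of 4143 genes with such counts, and lower in 1 (Rbm8a), against 27.3%. Rnps1 overlapped. Over 6435 genes with at least 20 counts in each of these libraries, the mean share was 7.02%, 7.37% and 7.16% in input and 8.45%, 8.23% and 7.93% after the p-UPF1 IP. The shares themselves were not tested.

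**Figure D3:**
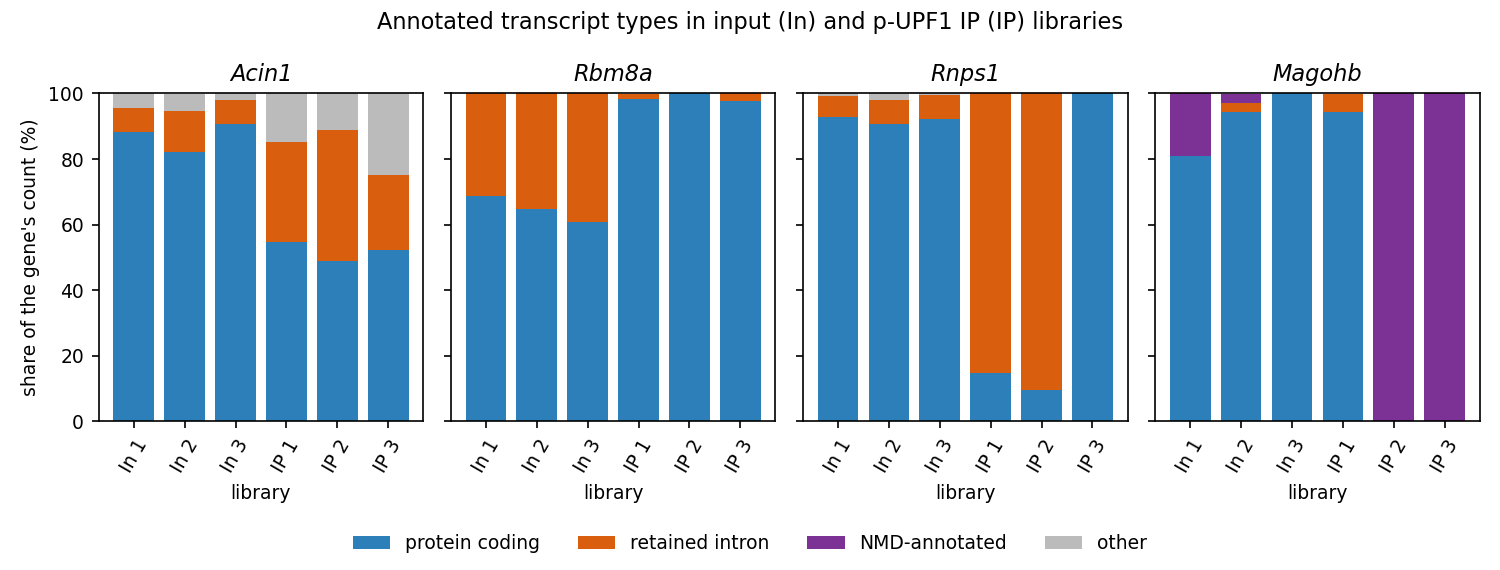
Share of the count of Acin1, Rbm8a, Rnps1 and Magohb, in percent, on transcripts annotated as protein coding, retained intron, NMD or other, in each of 3 input (In) and 3 p-UPF1 IP (IP) libraries. Acin1 and Rbm8a differ between the groups in every library, while in Rnps1 and Magohb the p-UPF1 IP libraries differ among themselves.

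Other members showed splits that differed between replicates of a group. Rnps1 ENSMUST00000234630.1, a retained-intron transcript, had 81, 92 and 0 counts in the p-UPF1 IP, while the coding transcript ENSMUST00000115371.8 had 0, 0 and 92. Magohb ENSMUST00000173198.7, annotated as an NMD transcript, had 0, 13 and 18 counts there, while its main input transcript ENSMUST00000032307.11 had 28, 34 and 43 in input and none in any p-UPF1 IP library, at least 4.10-fold lower. Rbm8a ENSMUST00000196456.4 went from 222, 192 and 160 counts to none, at least 22.6-fold lower, and the p-UPF1 IP counts lay on ENSMUST00000048915.10 in replicate 1 (64) and on ENSMUST00000198027.4 in replicates 2 and 3 (66 and 91). ENSMUST00000196456.4 and ENSMUST00000048915.10 have no window of their own within the gene (2604 and 2608 nt, 6 exons each), so this bound too depends on the assignment of shared reads. Rnps1 ENSMUST00000088512.12 had 117, 113 and 116 counts in input and none in the p-UPF1 IP, at least 13.6-fold lower. Only 1.68% of its windows occur in no other annotated transcript of any gene, so this bound also depends on the assignment. For Sap18 ENSMUST00000128764.8 the counts were 68, 65 and 80, then 6, 5 and 9 (log2 fold change -1.90, adjusted p = 0.0135). The last depleted transcript, Pnn ENSMUST00000217676.1, held only 6, 5 and 5 counts in input and none in the p-UPF1 IP (adjusted p = 0.0498), and against 3 counts per library the bound is 0.629-fold, so no decrease is bounded. Pnn ENSMUST00000021381.5 was the most counted transcript of its gene in both groups. For Magoh, ENSMUST00000030348.5 held 0, 6 and 0 counts after the p-UPF1 IP and the processed transcript ENSMUST00000141376.1 held 2, 0 and 4.

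The mRNAs were compared for features that bear on the complex they encode. In both coding transcripts of Casc3 the last exon junction lies 45 nt downstream of the end of the coding sequence. An exon junction thus follows the stop codon, by less than 50 nt. In the most-counted input transcripts of the other 8 members the last junction lies within the coding sequence. Of 12760 genes with a coding transcript and at least 10 counts over these libraries, 4.73% have a junction after the coding sequence and 0.580% one more than 50 nt after it. For each gene only the transcript most counted in input among those annotated as protein coding was used, so transcripts annotated as NMD do not enter these shares. In the NMD-annotated transcripts of Magohb (150, 403 and 209 nt) and Pnn (108 nt) the junction lies more than 50 nt after the coding sequence. The sequence after the coding part measures 1599 nt in Casc3 ENSMUST00000017384.13, 183 nt in the main transcript of Eif4a3, 151 nt in that of Magoh, 244 nt in that of Magohb and 2060 nt in that of Rbm8a. It measures 713 nt in Rnps1, 1188 nt in Pnn, 570 nt in Acin1 and 4563 nt in Sap18, against a median of 920.5 nt over those genes. Whether any of these features bears on the counts was not tested.

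Levels of different genes were compared per kilobase of transcript (CPM per kb, each transcript by its own length). In input the order was Rbm8a (13.0 ± 1.51), Rnps1 (11.6 ± 1.11), Eif4a3 (9.44 ± 0.647), Acin1 (7.97 ± 0.827), Magoh (4.75 ± 0.616), Casc3 (4.41 ± 0.471), Pnn (3.10 ± 0.324), Magohb (2.39 ± 0.308) and Sap18 (0.716 ± 0.148). Rbm8a and Rnps1, Eif4a3 and Acin1, and Magoh and Casc3 lay within their SDs of each other. In the p-UPF1 IP Acin1 (17.8 ± 2.52) and Casc3 (16.2 ± 0.766) led and lay within their SDs, followed by Rnps1 (11.0 ± 1.54) and Eif4a3 (8.10 ± 1.34). Next came Rbm8a (4.32 ± 0.968), Magohb (3.97 ± 0.748), Sap18 (3.49 ± 2.85) and Pnn (2.65 ± 0.620), each within its SD of the next, and Magoh (1.02 ± 0.275), which lay below Pnn by more than their SDs but within the wide SD of Sap18. These values depend on the transcript to which counts were assigned, and Rbm8a in input includes the 560-nt ENSMUST00000199022.1 (103, 112 and 153 counts), whereas its coding transcripts are several times longer. For Sap18 shorter transcripts took counts in p-UPF1 IP replicates 1 and 2.

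For each member the gene with the most similar pattern over the 6 input and p-UPF1 IP libraries was sought among genes with at least 100 mean input counts, by Euclidean distance of centred log2(CPM + 1). Closest were Casc3 and Dctn1 (distance 0.0695, over 6840 genes), Acin1 and Sptan1 (0.0786), Rnps1 and Kif14 (0.0939), and Eif4a3 and Ccdc127 (0.0987). Rbm8a was nearest to Rbm27 (0.137), Magoh to Nxf7 (0.142), Magohb to Cdk2 (0.168), Pnn to Azi2 (0.210) and Sap18 to Pfdn4 (0.296). Dctn1 had 10.5 CPM in input and 31.9 CPM in the p-UPF1 IP.

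A list of 13 genes whose products load, remove, recycle or bind the complex showed both directions as well. Over input 5 were higher (26.3% of all genes), of which 4 were enriched (17.2%). The 7 lower ones (35.7% of all genes) included 2 depleted (26.5%), and Upf3b was neither. The list's median was -0.43, near that of all genes (-0.42). Pym1, whose product takes the complex off translating mRNA, went from 57, 77 and 64 counts in input to 120, 158 and 142 in the p-UPF1 IP (log2 fold change 2.87, SE 0.13, adjusted p = 2.93e-08). The export helicase gene Ddx39b (1.92), Ipo13 (1.62), which encodes the importin that returns MAGOH and RBM8A to the nucleus, Srrm1 (1.06) and Upf2 (0.95) were the other higher genes. The lower ones were Nxt1 (-2.03), Alyref (-1.02), Cwc22 (-0.72), whose product brings eIF4A3 to the spliceosome, Cwc27 (-0.67), Nxf1 (-0.66), Upf3a (-0.43) and Poldip3 (-0.23). Over the rIgG IP edgeR called 5 of the 13 higher, against 18.5% of all genes, a share that varied with the settings as given above.

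Of 7 genes for NMD factors (Upf1, Smg1 and Smg5 to Smg9, with Upf2, Upf3a and Upf3b counted among the partners above), 6 were higher over input (26.3% of all genes), 5 of them enriched (17.2%), and Smg8 was lower (-1.78), with a median of 1.87 against -0.42 for all genes. Of 4 genes that resemble members by sequence or name, Eif4a2 was higher and Eif4a1 and Sap18b were lower. Eif4a2, a translation initiation helicase gene, went from 33.3 ± 1.72 to 182.8 ± 10.7 CPM (log2 fold change 2.46, adjusted p = 2.64e-09 by edgeR's quasi-likelihood test). Eif4a1, of the same family as Eif4a3 (-0.81), was at -0.70 (adjusted p = 0.000170), and Rbm8a2 held at most 9 counts in any library.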

How the data were processed

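The authors trimmed the reads, mapped them to GRCm38 (STAR) with GENCODE M22, estimated transcript abundance with Salmon 0.13.1 and deposited estimated counts per transcript, as whole numbers in 9 columns that were each matched to a library by name. Counts of all transcripts of a gene symbol were summed. Groups were tested pairwise on their own 6 libraries in edgeR 4.0.16 (R 4.3.3; TMM factors, quasi-likelihood test), for features with a summed count of at least 10, with Benjamini-Hochberg adjustment over all of them. An SE is the absolute log2 fold change over the root of F. Folds against a group at 0 were computed against 3 counts per library. GENCODE M21, of the same build, held all 72 member transcripts in the same version and gave positions, types, sequences and 35-nt windows.

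The genes named are the members, a list of partners, NMD factors and look-alikes, cell type markers, the most-counted and called transcripts of each member, and the most similar gene for each. Members and lists were chosen with earlier results of these data known. Alternatives were library totals alone or RLE factors in place of TMM, DESeq2 1.42.0, protein-coding transcripts only, filterByExpr or no filter, a replicate block, a joint fit of all 9 libraries, and the omission of each library in turn. Adding genes that share at least 5% of a member's windows to its sum was chosen after seeing the data. Part of the marker check is not reported here.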

Additional observations from a re-analysis of the deposited data

How the results depend on the processing

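Of 135 log2 fold changes of members over input under other settings, 122 kept their direction and side of the threshold, as did 126 of 130 over the rIgG IP and 123 of 135 in the rIgG IP over input. Casc3, Eif4a3 and Magoh kept their calls over input under all 15, and Casc3 over the rIgG IP. With protein-coding transcripts only, 1 member in place of 2 was higher over input, and the values turned for Acin1 (-0.13), Magohb (-0.84) and Rbm8a (0.25). Library totals turned Rnps1 (0.24), Pnn (0.28) and Sap18 (0.14). Leaving out each library in turn gave -0.27 to 0.0579 for Pnn and -0.48 to 0.10 for Sap18. Values not called in the reported fit also turned. Over the rIgG IP these were Magoh with DESeq2 (-0.53) and, leaving out a library, Eif4a3 (-0.0440 to 0.94), Pnn (-0.13 to 0.65) and Sap18 (-1.46 to 6.45). In the rIgG IP over input DESeq2 turned Magohb (0.11), Casc3 (0.13) and Acin1 (0.0825), RLE factors turned Casc3 (0.13) and Acin1 (0.0822), library totals turned Casc3 (0.0585) and Acin1 (0.0135), and adding Sap18b turned Sap18 (-0.22), while leaving out a library gave -7.67 to 0.0278 for Magohb, -0.76 to 0.0138 for Casc3, -0.64 to 0.25 for Pnn and -8.47 to 1.46 for Sap18. Enriched member transcripts were 5, and 8 with DESeq2. With the replicate block 0 were enriched and 0 depleted, against 1076 and 1464 of all transcripts, and the block changed no call of a member's summed count. Same-numbered libraries did not deviate together (correlations of -0.00161, 0.0509 and 0.0392 over 10613 genes for p-UPF1 IP and input), so the numbers were not taken to pair the cultures. The causes of these changes were not tested. Counts of all rIgG IP libraries are limited by depth, and Sap18, Magohb, Rnps1, Rbm8a and Eif4a3 share sequence with other genes. For Magohb this is mainly a pseudogene annotated within its own locus. Counts of single transcripts differed between replicates in the deeper input libraries too, as for Casc3 ENSMUST00000169695.1 (259, 135 and 0). Why they differed was not tested.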
